A study of Mus musculus with 12 samples.

Results

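Clone 981E5 is 1 of 12 induced pluripotent stem (iPS) cell clones, and 1 of the 6 that carry the Aid-/- genotype, in a series that compared gene expression between iPS cells of the Aid+/+ and Aid-/- genotypes. It was set here against the 5 other Aid-/- clones, 979F1, 979F2, 979F3, 981E1 and 981E4. All 6 were labelled male, on a mixed background of the strains C57BL6, DBA and 129S4, were homozygous for the disrupted allele that the genotype names, and carried the Nanog-GFP reporter. They came from embryonic fibroblasts reprogrammed with retroviruses and were collected at passage 6, after growth on feeder cells and then on gelatin, with LIF and puromycin. The 6 Aid+/+ clones, which carried the same reporter and were grown in the same way, are given only as background. Each line grew from 1 colony and was read on 1 array, so the clone has no replicate, and its values cannot be separated from those of its array. Clone 981E5 was chosen by its measured signals, which stood apart from those of the other clones. The same signals chose it and describe it, so no difference was tested for significance and every value below is a description.

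An iPS cell has the unlimited growth and wide developmental potential of an embryonic stem cell. A network around Oct4, Sox2 and Nanog holds this state, which runs from a naive form, close to the early embryo and kept by LIF, to a primed form that already transcribes genes of the epiblast and the early nervous system. Cultured pluripotent mouse cells are known to gain whole chromosomes, chromosome 8 among the most frequent. DNA copy number was not measured in this series. Stress pathways can also shift the transcriptome of a culture, among them the unfolded protein response, which answers misfolded protein in the endoplasmic reticulum, and the response to low oxygen that hypoxia-inducible factors drive.

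Signals are given as log2 of the processed spot intensity minus the 75th percentile of the array, so that 0 is the level of a fairly bright probe. A probe was used where it was well above background on all 6 arrays, which held for 29633 probes, 18229 of them on 13973 named genes. The difference of a gene is its signal in 981E5 minus the mean of the 5 other clones on the log2 scale. A gene was called where this exceeded 2-fold and 981E5 lay outside the range of all 5. By this rule 450 genes were higher (3.22% of those tested) and 610 were lower (4.37%). With the median gene outside chromosome 8 set to 0, a centring chosen after seeing the data, 542 were higher and 484 lower, so that the share of higher genes among those called went from 42.5% to 52.8%. Without the fold condition, 981E5 was the highest of the 6 clones in 26.9% of all genes and the lowest in 35.4%. The rule had Stom at 1.00 and Trmt61b at -1.0 as its nearest genes inside, and Kdf1 at 1.00 and Tcf7l1 at -1.0 as its nearest outside. Another 15 genes were over 2-fold higher and 13 over 2-fold lower on the mean, but lay within the range of the others.

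The quality values of the 981E5 array lay within the range of the other 11 arrays. Of its probes 58.5% were well above background, and the other 11 arrays lay between 56.9% and 60.5%. It had 136 spots marked as outliers, against 116 to 187, and its 75th percentile was 426 intensity units, against 418 to 509. Among the Aid-/- arrays this percentile was the lowest, with the others between 479 and 509. The markers of the pluripotent state were present, with Dppa5a at 9.18, Zfp42 at 7.06, Sox2 at 3.43, Pou5f1 at 3.15 and Nanog at -0.08. The Y-linked genes went against the label of 1 comparison clone. Eif2s3y, a translation factor gene of the Y chromosome, was at 3.92 in 981E5, at 3.83, 3.56, 4.58 and 3.77 in 979F1, 979F2, 981E1 and 981E4, and at -7.40 in 979F3. Ddx3y and both probes of Uty were also detected on all arrays of the series except that of 979F3, and Kdm5d was not well above background on any. Without 979F3, 398 genes were called higher and 525 lower, and the median difference of the chromosome 8 genes was 0.39.

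The number of genes that differed over 2-fold from the median of the 6 clones was 902 in 981E5. It was 67 in 979F1, 136 in 979F2, 115 in 979F3, 168 in 981E1 and 152 in 981E4. Over 29615 probes, the Euclidean distance of 981E5 was 83.3 to 981E4 and 88.4 to 981E1, its nearest clones. It was 113 to 979F1, 122 to 979F3 and 123 to 979F2. The 10 pairs among the 5 other clones lay 44.3 to 86.6 apart. The Aid+/+ clones lay between 104 and 150 from 981E5.

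Chromosome 8 was the place where 981E5 was highest as a whole. Its 745 measured genes had a median difference of 0.39, and the 13228 genes elsewhere a median of -0.07. The 25th and 75th percentiles of the chromosome 8 genes were 0.05 and 0.72, so most lay less than 2-fold above the others. The other 19 chromosomes had medians between -0.14 and -0.01. As a deviation from the median of the 6 clones, the chromosome 8 median was 0.34 in 981E5, -0.03 in 979F1, -0.01 in 979F2, -0.01 in 979F3, -0.02 in 981E1 and -0.02 in 981E4. The 5 other clones lay close together at this chromosome, and the Aid+/+ clones lay between -0.03 and 0.05. The shift was the same against either clone series, 0.39 against 981E1 and 981E4 and 0.39 against the 979F clones, and 0.36 against the Aid+/+ clones.

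**Figure D1:**
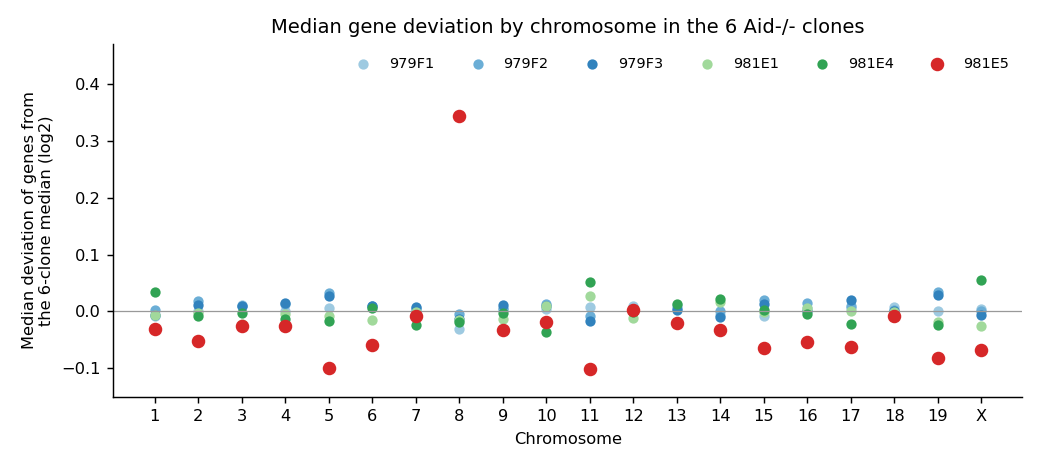
Median over the measured genes of each chromosome of the deviation from the 6-clone median (y axis, log2), for chromosomes 1 to 19 and X (x axis), 1 point for each Aid-/- clone. The point of 981E5 on chromosome 8 lies at 0.34, and the 5 other clones lie between -0.04 and 0.06 on every chromosome shown.

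The shift ran along the whole chromosome and across all signal levels. When the genes were divided into 10 parts in their order, with 74 or 75 genes in each, the median difference lay between 0.32 in the part from Insr to Angpt2 and 0.55 in that from Purg to Hpf1. The last part, from Jph3 to the end, had 0.34. The 190 parts of the other chromosomes lay between -0.36 and 0.21. With all genes divided into 4 equal parts by their mean signal in the 5 other clones, from the dimmest to the brightest, the chromosome 8 genes had median differences of 0.44, 0.39, 0.41 and 0.36. Genes elsewhere had 0.01, -0.08, -0.10 and -0.09 in the same parts. In 61.5% of the chromosome 8 genes 981E5 was the highest of the 6 clones, against 24.9% of the genes elsewhere. It was the lowest in 8.59% and 36.9%.

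**Figure D2:**
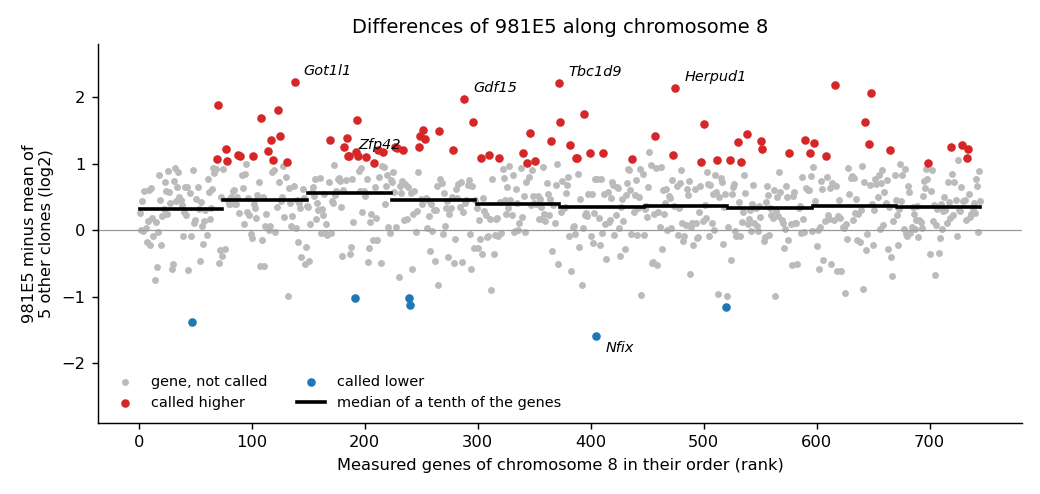
Difference of 981E5 from the mean of the 5 other Aid-/- clones (y axis, log2) for the 745 measured genes of chromosome 8 in their order along the chromosome (x axis, rank). Red and blue points are called genes, and the black bars, medians of 10 parts with 74 or 75 genes each, all lie between 0.32 and 0.55.

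Of the chromosome 8 genes, 82 were called higher (11.0%) and 6 lower (0.805%). The 10 highest, in order, were Got1l1, Tbc1d9, Ldhd, Herpud1, Hsdl1, Gdf15, Kbtbd11, Star, 4930432K21Rik and Zmat4. Got1l1, which resembles an aspartate aminotransferase, was at 1.77 in 981E5 and at -0.72, -0.95, -0.85, -0.09 and 0.36 in 979F1, 979F2, 979F3, 981E1 and 981E4. Tbc1d9, a protein with the domain of Rab GTPase activators, was at 0.49 against -2.43, -2.32, -2.56, -0.54 and -0.78 in the same clones. In both, 981E1 and 981E4 lay between the 979F clones and 981E5. Ldhd, which oxidises D-lactate in mitochondria, was 4.56-fold above the mean of the others, and Hsdl1, a hydroxysteroid dehydrogenase-like protein, 4.19-fold. Star, which carries cholesterol into mitochondria for steroid synthesis, was at -2.06, with the others between -4.17 and -3.56. Gdf15, a secreted TGF-beta family cytokine induced by cell stress, was at 1.67 against -0.38, -0.77, -0.37, -0.02 and 0.07, a 3.91-fold difference. For Star and Gdf15 the 5 others lay close together. With normexp background correction the difference of Star was 0.87, under 2-fold. Against 981E1 and 981E4 alone, Kbtbd11 had 0.84 and Zmat4 0.78.

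The 5 lowest genes of chromosome 8 were Nfix, Atp11a, Ces2e, Csgalnact1 and Fam149a. Nfix, a nuclear factor I transcription factor, was at -1.52, against 0.20, 0.36, 0.67, -0.96 and 0.10. Atp11a, a phospholipid flippase, was at 0.16, and the others lay between 1.23 and 1.85. Against the mean of the Aid+/+ clones these genes did not share a direction. Nfix, Ces2e, Csgalnact1 and Fam149a were higher in 981E5 than that mean, by 0.78, 0.69, 0.86 and 0.64. In each of them the Aid+/+ clone 967B4 was lowest, at -6.22, -6.23, -7.01 and -4.88, which lowered the mean. The Aid+/+ medians were closer to 981E5, at -1.51, -3.15, -3.20 and -2.18, against -1.52, -2.95, -3.04 and -1.90 in 981E5. Ces2e and Csgalnact1 were also under 2-fold with normexp, at -0.68 and -0.55, and Ces2e was at -0.50 with no filter on dim probes. Without 979F3, Fam149a was at -0.90.

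A list of chromosome 8 genes with well-known roles gave 64 measured members with a median difference of 0.55. Of these 8 were called higher and 1 (Nfix) lower, and 981E5 was the highest of the 6 clones in 46. Over all 745 chromosome 8 genes 11.0% were called higher and 61.5% were highest in 981E5, so nothing particular to the list is read from its counts. Beside Herpud1 and Gdf15 the higher members were Ifi30, Rbl2, Nip7, Mt1, Zfp42 and Bst2. Ifi30, a thiol reductase of lysosomes, was at 3.72, and the others lay between 1.88 and 2.56. Rbl2, the pocket protein p130 that restrains E2F transcription, was at -1.05 against -2.84, -2.65, -2.61, -2.48 and -1.73. Nip7, which acts in the maturation of the large ribosomal subunit, was at 4.49 against 3.32, 3.20, 3.32, 3.32 and 3.51, but its 2 probes differed, at 0.57 and 1.74 above the others. Zfp42 (Rex1), a marker of naive pluripotent cells, was at 7.06 against 5.85, 5.71, 5.57, 6.29 and 6.31. Mt1, a metallothionein, was at 8.91, close to 8.61 in 981E1 and 8.33 in 981E4, and far above the 979F clones at 7.16 to 7.61. Among members that were not called, Rpl13, a ribosomal protein, had a difference of 0.74, Hmgb2, a chromatin protein, 0.83, and Tomm20, of the mitochondrial import pore, 0.77. Ctcf and Sf3b3 had only 0.16 and 0.05.

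The probes for long intergenic RNA (lincRNA) regions, which the files place on the mm9 build, showed the same shift. The 398 on chromosome 8 had a median difference of 0.42, and the 5544 elsewhere 0.05. On chromosome 8, 76 were called higher (19.1%) and 4 lower (1.01%), against 5.72% and 2.38% elsewhere. The highest, chosen after its values were seen, lay in the region chr8:124355710-124401160 on the minus strand. It was at 1.18 in 981E5, and at -4.15, -3.54, -3.68, -1.63 and -1.13 in 979F1, 979F2, 979F3, 981E1 and 981E4. Another, in chr8:41475940-41476460, was at -0.67, with the 5 others between -2.59 and -2.15.

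Away from chromosome 8, 368 genes were called higher (2.78%) and 604 lower (4.57%). The 15 highest were Svop, Dusp8, Atf3, Ndufa4l2, Zc3h6, Brd8dc, 2610528A11Rik, Ghrl, Ccna1, Catsperz, Pip5k1c, Tal2, Srgn, Gm3696 and Rgl3. Svop, a transporter-like protein of synaptic vesicles, was at 0.51 against -3.73, -3.94, -3.72, -2.24 and -1.44, an 11.5-fold difference from the mean of the others. Dusp8, a phosphatase of stress-activated MAP kinases, was at 0.50 against -3.38, -3.32, -3.16, -1.19 and -0.52. Both were ordered in the same way, lowest in the 979F clones and highest in 981E5. Pip5k1c, a kinase that makes the phospholipid PIP2, was at -1.38 with the others between -4.23 and -2.70, and Tal2, a bHLH transcription factor, was at -0.32 with the others between -3.00 and -2.20. In these 2 genes 981E1 lay among the 979F clones and 981E4 just outside their range. With no filter on dim probes, Pip5k1c had a difference of only 0.80. Ccna1, a cyclin of meiosis, and Catsperz, a subunit of the sperm calcium channel, were 5.04-fold and 4.96-fold above the mean of the others. With normexp background correction the difference of Ccna1 was 0.85, under 2-fold. Against 981E1 and 981E4 alone, Gm3696 had a difference of 0.70.

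The 15 lowest were Insm1, Gfra3, Gbx2, Spink1, Wt1, Neurog3, Ccno, Tnfsf11, Ctcfl, Enpp2, Gap43, Ccl7, Pla2g1b, Sox3 and Jakmip2. Insm1, a zinc finger repressor of neuroendocrine cells, was at -1.55 against 2.84, 3.41, 3.09, 0.97 and 0.84, a 13.8-fold difference. Gfra3 is the co-receptor for the neurotrophic factor artemin and was 11.0-fold lower, Gap43 is a protein of growing axons and was 6.49-fold lower, and Neurog3, the bHLH factor that starts endocrine development in the pancreas, was 8.70-fold lower. Gbx2, a homeobox gene that LIF induces in pluripotent cells, was at -1.74, against 1.98, 2.48, 2.54, 0.73 and 0.43. Wt1, a zinc finger factor of kidney and gonad, was at -1.73, against 1.62, 2.15, 2.51, 0.97 and 0.67. In Insm1, Gbx2 and Wt1, 981E5 was also below all 6 Aid+/+ clones, whose lowest values were -0.45, 0.60 and -0.82. In Ctcfl, Enpp2 and Ccl7 it was not, at -3.98, -2.0 and -3.37 against lowest Aid+/+ values of -5.06, -2.46 and -7.18. All of these lowest values were of clone 967B4. Ccl7 differed from the mean of the Aid+/+ clones, which 967B4 lowered, by only -0.23, and their median was -2.49. Pla2g1b, a secreted phospholipase, was at 0.68, where the 5 others lay together between 2.84 and 3.67.

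The difference of 981E5 had a common order with the clone series. Among the genes called higher, the mean of 981E1 and 981E4 lay on the side of 981E5 relative to the mean of the 979F clones in 415 of 450 (92.2%), and among those called lower in 529 of 610 (86.7%), where 72.0% of all genes had this order. The genes called higher had a median difference of 1.53 from the 979F clones and of 0.91 from 981E1 and 981E4. Those called lower had -1.40 and -1.0. Counted against 981E1 and 981E4 alone, which shared the slide and series of 981E5, 194 genes were higher and 390 lower by the same rule. The 979F arrays lay on another slide, so clone series and slide cannot be told apart. Of the called genes, 163 higher and 277 lower ones were over 2-fold from the means of both series. Beyond all 6 Aid+/+ clones lay 349 of the 450 (77.6%) and 369 of the 610 (60.5%). Of all genes 48.9% lay beyond these clones, counted in either direction.

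**Figure D3:**
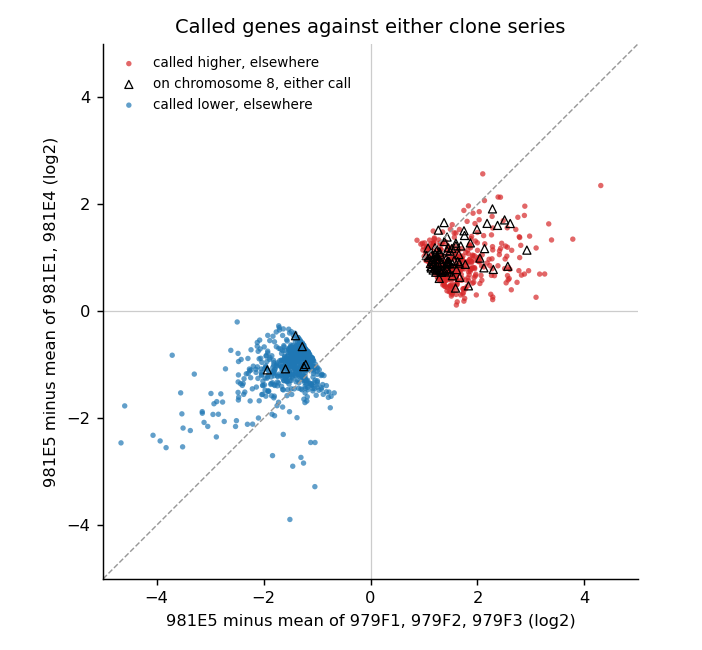
Difference of 981E5 from the mean of the 979F clones (x axis, log2) and from the mean of 981E1 and 981E4 (y axis, log2) for each called gene, with genes of chromosome 8 as triangles and equal differences on the dashed line. Most called genes lie nearer to 0 on the y axis than on the x axis, at medians of 0.91 and 1.53 for the genes called higher and of -1.0 and -1.40 for those called lower.

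Genes of the unfolded protein response and of the amino acid response were higher in 981E5. Of 20 measured members 17 were highest in this clone (all genes, 26.9%) and none lowest (35.4%). Their median difference was 0.65 (all genes, -0.05), and 4 were called higher (all genes, 3.22%) and none lower (4.37%). Atf3, a stress-induced transcription factor, was at 0.61, against -2.91, -3.10, -2.17, -1.32 and -0.74, a mean of -2.05 ± 1.01 (SD, n = 5). Herpud1, a membrane protein of the endoplasmic reticulum that helps degrade misfolded protein and is encoded on chromosome 8, was at 3.65, against 1.41, 1.17, 1.53, 1.66 and 1.81, a mean of 1.52 ± 0.24 (SD, n = 5). Chac1, which cleaves glutathione and is induced through Atf4, was at 4.52, against 2.41, 2.20, 2.87, 2.87 and 2.75. Trib3, a pseudokinase induced through Atf4 and Chop, was at 5.20, against 3.69, 3.65, 3.93, 4.20 and 3.98. All 4 lay above every other clone of either genotype, although Atf3 reached 0.21 in 1 Aid+/+ clone.

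The stretch of 250 bases before the transcription start of these 4 genes is shown, because they are the members that stood out and known response elements can be looked for in it. The sequences are from RefSeq on the build GRCm38.p6, 5′ to 3′ in the direction of the gene. Capitals mark matches, on either strand, to the C/EBP-ATF response element TGATGNAA (CARE) or to the endoplasmic reticulum stress element II (ERSE-II), which is ATTGG and CCACG with any 1 base between them, and the free base is in lower case.
Herpud1, chr8:94386179-94386428 (+ strand): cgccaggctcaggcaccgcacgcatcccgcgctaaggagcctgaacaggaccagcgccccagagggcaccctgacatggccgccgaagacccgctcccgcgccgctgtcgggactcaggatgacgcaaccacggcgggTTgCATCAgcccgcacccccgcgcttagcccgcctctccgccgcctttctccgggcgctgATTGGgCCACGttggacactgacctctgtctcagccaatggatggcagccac
Chac1, chr2:119350992-119351241 (+ strand): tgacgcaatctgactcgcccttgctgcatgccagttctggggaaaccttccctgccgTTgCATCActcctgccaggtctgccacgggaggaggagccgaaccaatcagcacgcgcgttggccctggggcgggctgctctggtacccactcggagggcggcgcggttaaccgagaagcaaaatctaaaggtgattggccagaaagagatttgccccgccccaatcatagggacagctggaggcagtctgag
Atf3, chr1:191183334-191183583 (- strand): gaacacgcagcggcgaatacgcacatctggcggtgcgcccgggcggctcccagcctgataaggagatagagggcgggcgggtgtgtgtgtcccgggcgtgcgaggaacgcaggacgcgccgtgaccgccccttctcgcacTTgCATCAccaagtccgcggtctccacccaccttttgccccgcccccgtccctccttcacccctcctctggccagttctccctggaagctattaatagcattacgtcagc
Trib3, chr2:152344061-152344310 (- strand): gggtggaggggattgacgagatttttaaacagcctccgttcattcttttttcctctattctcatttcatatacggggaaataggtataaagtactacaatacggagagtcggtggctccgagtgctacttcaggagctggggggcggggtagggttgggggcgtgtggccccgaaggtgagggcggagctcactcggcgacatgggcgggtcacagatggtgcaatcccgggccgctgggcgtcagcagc
Herpud1 held the ERSE-II 42 to 52 bases before its start, and 10 of 32851 promoters of the table held one in this window (0.0304%). A CARE stood in Herpud1 at 105 to 112 bases, in Chac1 at 186 to 193 and in Atf3 at 103 to 110, each time as TTgCATCA on this strand, and 3.45% of all promoters held a CARE. No letters of Trib3 matched either element. A match is only a run of letters, and binding was not measured.

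The other members of this list were not called, and most had smaller positive differences. The chaperones of the endoplasmic reticulum lay close together in the 5 other clones. Hspa5 (BiP) was at 6.88, against 6.06, 6.16, 6.14, 6.02 and 6.15. Hsp90b1 (Grp94) was at 7.13, against 6.33, 6.32, 6.34, 6.24 and 6.37. Calr (calreticulin), from chromosome 8, was at 5.42, with the others between 4.37 and 4.86. These 3 genes were the members whose window held the endoplasmic reticulum stress element (ERSE), which is CCAAT and CCACG 9 bases apart. It was searched on either strand, and 37 of the 32851 promoters held it (0.113%). The last letters of the Herpud1 window fit all but the final base of an ERSE, and that base lay past the window and was not searched. The element is shown with the 9 free bases in lower case, and for Calr and the second match of Hsp90b1 it stands on the reverse strand.
Hspa5, chr2:34772025-34772043: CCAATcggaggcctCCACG
Hsp90b1, chr10:86705638-86705656: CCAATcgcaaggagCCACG
Hsp90b1, chr10:86705533-86705551: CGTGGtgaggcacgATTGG
Calr, chr8:84847075-84847093: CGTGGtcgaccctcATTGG
Atf4, the transcription factor of the amino acid response, was at 5.86, against 4.89, 4.88, 5.03, 4.81 and 5.13. Asns, asparagine synthetase, had a difference of 0.72, but at 7.35 it was close to 7.08 in 981E1 and 6.98 in 981E4. Xbp1, Pdia4 and Shmt2 had differences of 0.15, -0.07 and 0.00. Without the members on chromosome 8, an alternative chosen after seeing the data, the list median was 0.59.

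A minority of the genes of the hypoxia response and of glycolysis were called, most of them higher. The 20 measured hypoxia genes had a median difference of 0.39, with 4 called higher (all genes, 3.22%) and 1 lower (4.37%). In 11 of them 981E5 was highest (all genes, 26.9%). Ndrg1, a stress-response gene, was at 2.34, against 1.17, 0.45, 0.45, 1.22 and 1.42. P4ha1, a prolyl hydroxylase of collagen, was at -0.19, against -1.71, -1.99, -1.77, -1.19 and -1.22. Bnip3, a mitochondrial inducer of mitophagy, was at 4.73, against 3.54, 2.75, 2.87, 3.69 and 4.11. Car9, a carbonic anhydrase of the cell surface, was at -1.62, against -3.06, -3.40, -3.02, -2.55 and -2.67. In Ndrg1 and Bnip3 the Aid+/+ clones reached 2.37 and 5.30, above 981E5, and over the list the median difference from the Aid+/+ clones was 0.00. The transcription factors themselves had differences in the other direction. Epas1 (Hif2a) was called lower, at 1.29 with the others between 1.93 and 2.58, though its 3 probes ran from -1.87 to 0.04, and Hif1a was at 1.36 with the others between 1.71 and 2.14.

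The core hypoxia response element ACGTG stood in the 250 bases before the start of all 3 of these genes that had an entry, Bnip3, Car9 and P4ha1, and in those of 12 of the 17 measured members with an entry. It stood in 16.6% of all promoters, on either strand, and is part of the E-box CACGTG, which Bnip3 has and 6.02% of all promoters hold. Capitals mark it, or its reverse CACGT.
Bnip3, chr7:138909507-138909756 (- strand): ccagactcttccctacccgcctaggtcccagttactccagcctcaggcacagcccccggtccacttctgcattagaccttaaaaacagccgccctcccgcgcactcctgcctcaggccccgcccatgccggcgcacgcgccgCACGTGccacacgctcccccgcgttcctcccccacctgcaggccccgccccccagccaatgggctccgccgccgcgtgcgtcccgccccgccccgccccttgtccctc
Car9, chr4:43506776-43507025 (+ strand): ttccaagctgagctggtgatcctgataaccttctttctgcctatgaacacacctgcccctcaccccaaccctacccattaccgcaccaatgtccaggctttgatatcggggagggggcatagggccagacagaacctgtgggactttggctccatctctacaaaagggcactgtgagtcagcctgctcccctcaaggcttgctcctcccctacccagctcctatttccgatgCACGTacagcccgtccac
P4ha1, chr10:59323046-59323295 (+ strand): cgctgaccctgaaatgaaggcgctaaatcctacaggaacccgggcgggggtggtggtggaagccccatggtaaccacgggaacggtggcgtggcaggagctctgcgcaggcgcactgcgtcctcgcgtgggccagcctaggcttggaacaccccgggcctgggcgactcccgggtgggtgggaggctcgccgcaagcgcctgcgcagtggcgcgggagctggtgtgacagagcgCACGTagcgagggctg
The match lay 103 to 108 bases before the start in Bnip3, 14 to 18 in Car9 and 12 to 16 in P4ha1.

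Among 20 glycolysis genes the median difference was 0.44, with Aldoc and Eno2 called higher (all genes, 3.22%) and none lower (4.37%). In 15 of them 981E5 was highest (all genes, 26.9%). Aldoc, an aldolase, was at 5.20, against 3.83, 2.95, 3.25, 4.60 and 4.25. Eno2, an enolase, was at 1.27, against 0.42, -0.20, 0.21, -0.19 and 0.47. Pgk1, which makes ATP in the payoff phase, was at 8.65, with the others between 7.43 and 8.18. The glucose transporter Slc2a1 and the first enzyme Hk2 were lower, with differences of -0.64 and -0.76. Against the Aid+/+ clones the median of the list was 0.07. Gapdh, often used as a reference gene, was read by 7 probes and had a mean difference of 0.21, which became -0.0013 after quantile normalization and -0.15 against the Aid+/+ clones. Each of its probes was a little higher in 981E5, by 0.08 to 0.31.

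Myc, which drives growth and ribosome synthesis, was at -0.33 in 981E5. It was at 1.24 in 979F1, 1.67 in 979F2, 1.5 in 979F3, 1.90 in 981E1 and 1.35 in 981E4, a mean of 1.53 ± 0.26 (SD, n = 5). The clone lay 3.62-fold below this mean and outside the range, and the Aid+/+ clones spanned -0.59 to 1.90. Myc is read by 1 probe, and whether that probe also reads a retroviral Myc is not given in the sources used here. The 8 other measured members of the Myc network were not called. Of 28 targets in growth and nucleolar function 4 were called lower (all genes, 4.37%) and none higher (3.22%). Their median difference was -0.37, and 981E5 was lowest in 19 (all genes, 35.4%). Ccnd2, a D-type cyclin, was at 0.26, against 2.22, 2.23, 2.18, 0.97 and 1.63. Bop1, needed for the large ribosomal subunit, was at 3.50, with the others between 4.24 and 4.88. Polr1b, a subunit of RNA polymerase I, was at 1.88, with the others between 2.51 and 3.24. Wdr12, a partner of Bop1, had a difference of -1.01. The targets were not uniform, since Npm1, Nop58 and Tert had differences of 0.14, 0.23 and 0.41.

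Genes of the primed epiblast and early nervous system had a lower median in 981E5. Of 16 measured primed and neural genes 5 were called lower (all genes, 4.37%) and none higher (3.22%). Their median difference was -0.57, and 981E5 was lowest in 10 (all genes, 35.4%) and highest in none (26.9%). Sox3, an early neural factor, was at -1.70, against 1.06, 1.54, 1.74, 0.37 and 0.03. Pou3f1 (Oct6), a POU factor of the primed epiblast, was at 1.26, against 3.81, 4.46, 4.29, 3.28 and 2.70. Fgf5, the standard marker of the primed epiblast, was at -2.27, against -0.89, -0.40, -0.53, 0.15 and -1.88, so 981E4 was close to it. Zic2, a zinc finger factor of the neural plate, and Map2, a neuronal microtubule protein, had differences of -1.12 and -1.04. Otx2, a homeobox factor that guides the exit from the naive state, went the other way with 0.62, within the range of the others.

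**Figure D4:**
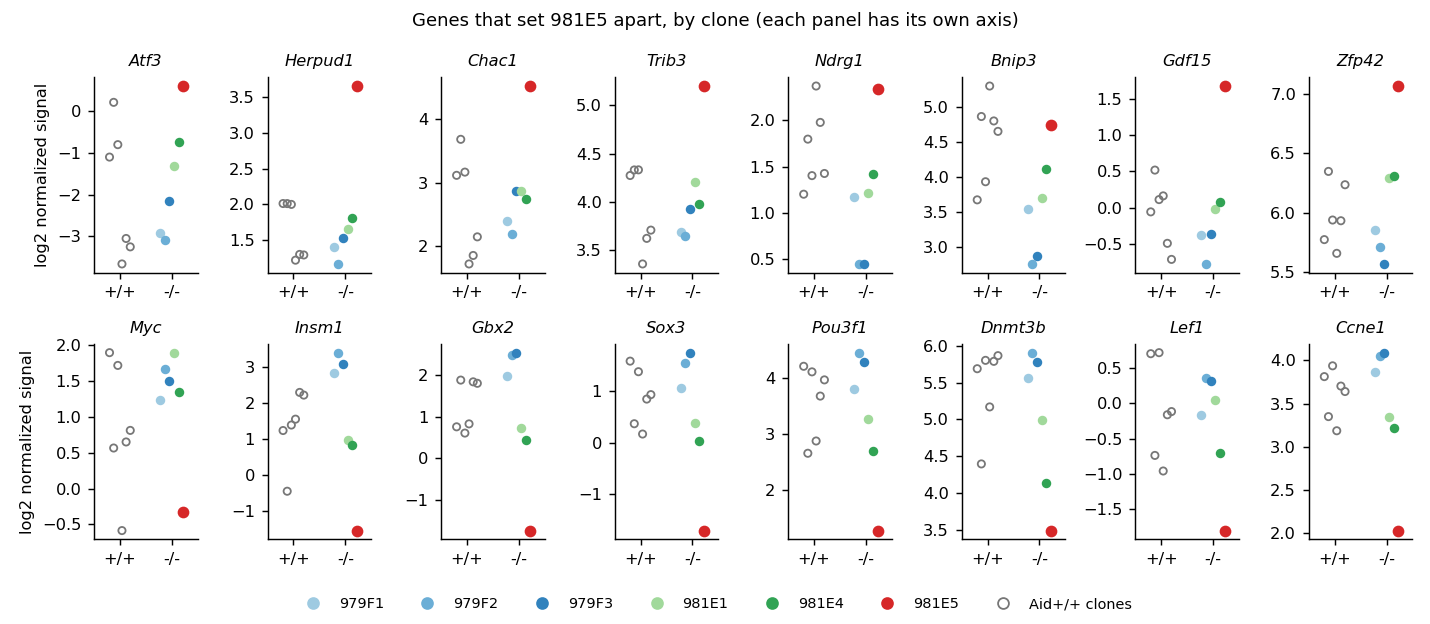
Log2 normalized signal (y axis, a separate scale in each panel) of 16 genes described in the text in the 6 Aid+/+ clones (open circles) and the 6 Aid-/- clones (filled circles, 981E5 in red), 1 point for each clone. In the Aid-/- clones 981E5 is the highest in each panel of the top row and the lowest in each panel of the bottom row, while Aid+/+ clones reach beyond it for Ndrg1, Bnip3 and Myc.

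Of 28 pluripotency genes only Zfp42 was called, the median difference was 0.02, and 981E5 was highest in 8 and lowest in 7. Over all genes 3.22% were called higher and 4.37% lower, and 981E5 was highest in 26.9% and lowest in 35.4%. Nothing particular to the pluripotency genes is read from these counts. Klf2, a naive factor that is also encoded on chromosome 8, was at 6.23, against 5.02, 5.01, 4.81, 5.92 and 5.75. Nanog was at -0.08, against -0.92, -0.90, -1.07, -1.03 and -0.64. Pou5f1 and Esrrb had differences of -0.08 and 0.02, and Klf4, Eras and Lin28a of -0.64, -0.85 and -0.85. The enzymes of DNA methylation include Dnmt3b, the de novo methyltransferase that marks the primed state. It was at 3.49, against 5.57, 5.91, 5.78, 5.00 and 4.13, called lower by the mean and nearest to 981E4. Apobec1, a cytidine deaminase that edits RNA, was called higher, at 2.37 against 0.52, 0.31, 0.63, 0.78 and 1.16. The other 14 measured members of that list were not called.

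Targets of Wnt signalling were lower in part. Of 10 measured genes of the pathway 3 were called lower (all genes, 4.37%) and none higher (3.22%), with a median difference of -0.44. Lef1, a factor through which beta-catenin acts, was at -1.80, against -0.16, 0.36, 0.32, 0.05 and -0.70. Sp5, a direct target, was at -3.36, against -1.92, -1.72, -1.88, -1.51 and -1.45, with all 5 others close together. Ccnd1, a D-type cyclin, was at 2.61, with the others between 3.44 and 4.33. Ctnnb1 (beta-catenin) itself had a difference of -0.17. In the cell cycle list Ccne1, the cyclin that starts DNA replication, was also lower, at 2.03 against 3.87, 4.05, 4.09, 3.34 and 3.22. The replication helicase genes Mcm2, Mcm3, Mcm4, Mcm6 and Mcm7 had differences between -0.29 and -0.13, and Mcm5, on chromosome 8, had 0.51.

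**Figure D5:**
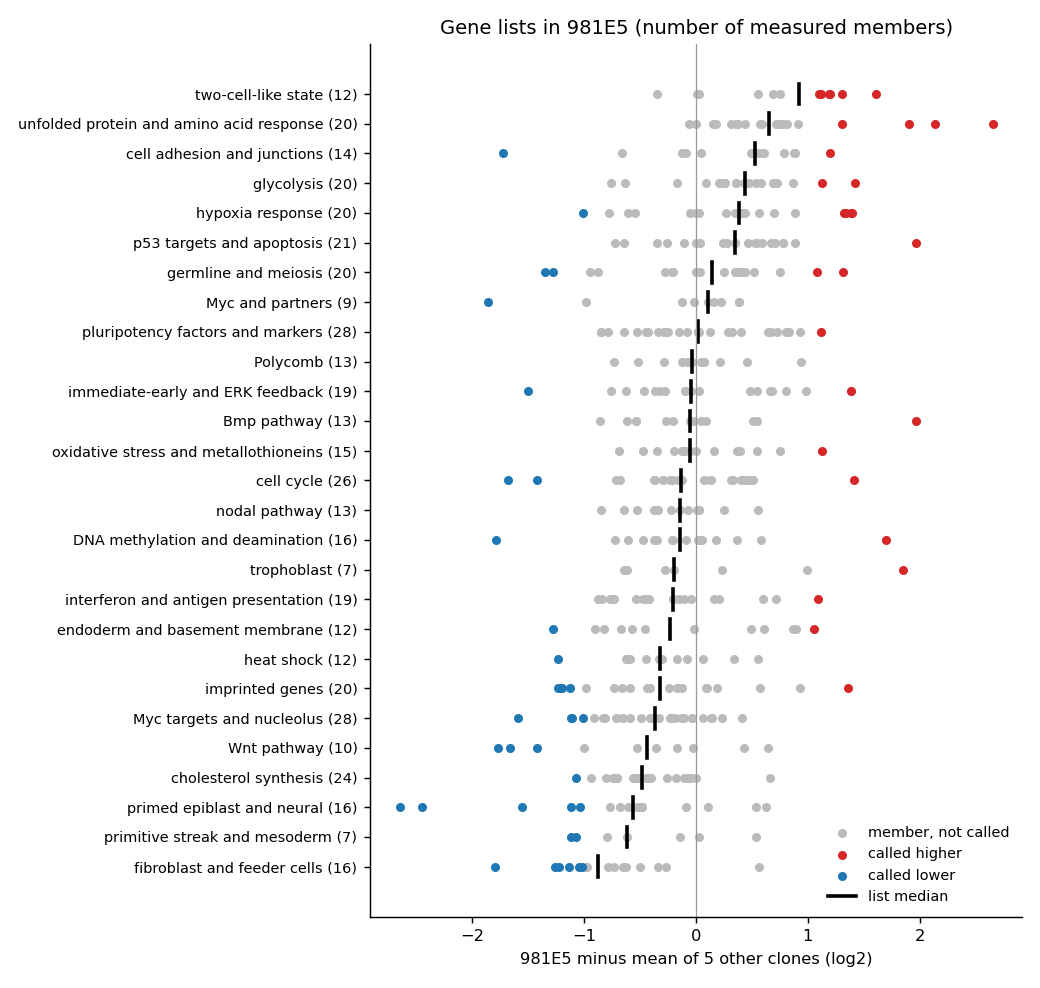
Difference of 981E5 from the mean of the 5 other Aid-/- clones (x axis, log2) for the measured members of 27 gene lists (y axis, number of members in brackets), with called members in colour and the list median as a black bar. List medians run from -0.88 (fibroblast and feeder cells) to 0.92 (two-cell-like state).

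Markers of fibroblasts, the cells of origin and the type used as feeder layer, were lower than in the other Aid-/- clones. Of 16 measured markers 14 were lowest in 981E5 (all genes, 35.4%), and the median difference was -0.88. By the rule 6 were called lower (all genes, 4.37%) and none higher (3.22%). Col3a1, a fibrillar collagen, was at -1.65, against 0.22, 0.73, 0.88, -0.93 and -0.15. Col1a1 was at 0.40, with the others between 1.07 and 2.01, and Thy1, a surface marker, at 2.23, with the others between 2.58 and 3.22. Against the Aid+/+ clones the list median was 0.68, the opposite direction. In bulk RNA, fewer cells of a type and less RNA per cell cannot be told apart. The list deviated from the 6-clone median by -0.76 in 981E5, -0.50 in 981E1, -0.11 in 979F1, 0.10 in 981E4, 0.32 in 979F2 and 0.43 in 979F3. Its part in the other differences was not tested.

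Of 14 adhesion and junction genes 1 was called higher (all genes, 3.22%) and 1 lower (4.37%). Their median difference was 0.53, and 981E5 was highest in 7 (all genes, 26.9%) and lowest in 3 (35.4%). Against the Aid+/+ clones the median was -0.10. Cdh2 (N-cadherin) was at -1.44, against 0.15, 0.84, 0.74, -0.34 and 0.07, and Cldn7, a claudin of epithelial tight junctions, was at 3.81, against 2.51, 2.17, 2.15, 3.62 and 2.59. Cdh1 (E-cadherin), on chromosome 8, was at 4.38, with the others between 3.51 and 3.99. The keratin gene Krt18, the single call of the 7 trophoblast genes, was at 5.37, with the others between 2.96 and 4.70. Bmp7, a secreted ligand of the Bmp pathway and the single call of its 13 measured genes, was at 2.45, against 0.02, -0.64, -0.37, 1.75 and 1.62, so that it stood apart from the 979F clones more than from 981E1 and 981E4.

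The two-cell-like state is a rare and passing state of cultured stem cells that transcribes genes of the early embryo. Of 12 of its genes 6 were called higher (all genes, 3.22%) and none lower (4.37%), with a median difference of 0.92. Over probes detected on all 12 arrays the median was 0.01. They belong to multi-copy families whose probes can read several copies, so single members are uncertain. Tcstv3 was at -1.20, against -1.52, -2.94, -2.65, -3.55 and -1.85, and Usp17lb at -1.66, against -2.46, -4.19, -3.33, -3.70 and -2.69. In both 979F1 was near 981E5, and over the list the deviation from the 6-clone median was 0.69 in 981E5 and 0.58 in 979F1. For Zscan4c, the best known gene of this state, 979F1 was higher than 981E5, at 1.84 and 1.60.

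Imprinted genes, which are transcribed from 1 parental copy, were mixed. Of 20 measured genes 4 were called lower (all genes, 4.37%) and 1 higher (3.22%), and the median difference was -0.33. In 10 of them 981E5 was lowest (all genes, 35.4%). Mest was at -0.15, with the others between 0.59 and 1.42, Peg3 at -0.34, with the others between 0.25 and 1.36, and Phlda2 at 0.19, with the others between 0.73 and 1.65. Nnat was at -3.19, close to 981E4 at -2.9. Sgce was called higher, at 1.43 with the others between -0.32 and 0.84. In cholesterol synthesis 18 of 24 genes were lowest in 981E5 (all genes, 35.4%), and the median difference was -0.48. Only Sqle, the squalene epoxidase, was called, at 3.15 with the others between 3.91 and 4.35. Of 21 p53 targets and apoptosis genes, with a median difference of 0.35, only Gdf15 was called (all genes, 3.22% higher).

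The remaining lists held 0 to 4 calls each, where 3.22% of all genes were called higher and 4.37% lower. The germline list had Hormad1 and Sycp3 higher and Rhox5 and Stra8 lower. Immediate-early genes had Klf6 higher by 1.39 and Spry4, an inhibitor of ERK signalling, lower by -1.51. Endoderm genes had Gata6 higher, near 979F1 and 981E1, and Hhex lower. The 7 measured genes of the primitive streak and mesoderm had Gsc and Kdr lower, the latter at 1 of its 2 probes (-2.05 and -0.09), and a median difference of -0.62. That median was -0.10 with normexp, -0.08 with no filter on dim probes and -0.15 over probes detected on all 12 arrays. Heat shock genes had Hsph1 lower, the interferon list Bst2 higher, and metallothioneins and oxidative stress Mt1 higher. The 13 Nodal pathway and 13 Polycomb genes had no call, with differences from -0.85 to 0.56 and from -0.74 to 0.94.

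Some probes were detected on 1 side only and so lay outside the rule. A signal well above background in all 5 other clones but not in 981E5 was found for 526 probes, which held 285 genes, and the other clones had 71 to 348 such probes each. The reverse, detection in 981E5 alone, was found for 453 probes, where the other clones had 245 to 859. Of the lost genes, 74 had another probe detected on all 6 arrays, and it was lower in 981E5 for 59 and over 2-fold lower for 13. Of the 139 gained genes 22 had another probe, and it was higher for 12 and over 2-fold higher for 1. For genes with no signal well above background on 1 side, the difference rests on dim signals. A signal below the dimmest probe detected on its array was raised to the level of that probe, which makes the difference a lower bound. Any other signal was used as measured and gives no bound. Vat1l, on chromosome 8, was at least 16.8-fold lower in 981E5. Mfsd2a, a lipid transporter, was 10.4-fold lower, with its dim signal in 981E5 used as measured. Hey2, a Notch effector, was 10.3-fold higher, with the dim signals of the other clones used largely as measured. The highest bound was at a probe of the ion channel Trpv1, at least 73.8-fold higher, with no other probe to compare. Notch1 gained signal at 1 probe by at least 13.2-fold, but its other probe was at -2.57 in 981E5 with the others between -3.28 and -2.44.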

How the data were processed

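The authors hybridised RNA of each clone to a 1-colour Agilent mouse array, and the deposited scanner files hold processed spot intensities, background-corrected by Feature Extraction 10.7.3.1. A deposited table holds log2 values that the authors scaled to the 75th percentile of each array, and these differed from the values computed here by at most 0.00678 in the median. Here control and outlier spots were removed, spots of 1 probe averaged, and log2 values centred on the 75th percentile of each array. Probes marked well above background on all 6 Aid-/- arrays were kept, and a gene took the mean of its probes. Of 3569 genes with several probes, 816 had probes that differed in sign. Of the accessions of 55681 probes, 27235 were matched to 20660 RefSeq genes, and 16181 probes were lincRNA probes with mm9 coordinates. A call needed a difference over 2-fold and outside the range of the 5 others. No p-value was computed. Named in the text are Myc and Gapdh, the 15 highest and 15 lowest called genes outside chromosome 8 and the 10 highest and 5 lowest on it whose probes share a sign, and called or exemplary list members. The clone and all lists were chosen with earlier results of these data known. Alternatives were normexp correction (offset 50), quantile normalization, other percentiles and filters, the deposited log2 values, the median of the others, other folds, other comparison clones and leaving out each clone. The targeted gene is not reported here. Call rules were tested on simulated data. The number of arrays, 1 for each clone, limits the precision. Python 3.11.15 (pandas 2.3.3, numpy 2.4.6, matplotlib 3.10.9) and R 4.3.3 with limma 3.58.1 were used.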

Additional observations from a re-analysis of the deposited data

Results flagged for a closer look

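Values were marked where the gap between the highest or lowest of the 6 Aid-/- clones and its neighbour was a large part of their range, with Dixon's critical value at the 95% level as the mark. Of 81 values 17 were marked, 16 of them at 981E5. Chance marks about 5% of groups, but 981E5 was chosen because it stood apart and 45 of the values are its most different genes, so the marks support nothing and only list where its gaps are wide.

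The median of the chromosome 8 genes deviated from the 6-clone median by 0.34 in 981E5, with the next clone at -0.01. The unfolded protein and amino acid response list deviated by 0.60 (next 0.04), the primed epiblast and neural list by -0.57 (next -0.03), the Wnt list by -0.39 (next -0.01) and the heat shock list by -0.30 (next -0.02). The trophoblast list was marked in another clone, 981E1, at 0.95 (next 0.13).

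Among single genes, Myc was marked at -0.33 with the next clone at 1.24. Of chromosome 8, Herpud1 was marked at 3.65 (next 1.81), Hsdl1 at 0.56 (next -1.03), Gdf15 at 1.67 (next 0.07), Star at -2.06 (next -3.56) and Atp11a at 0.16 (next 1.23). Elsewhere, Tal2 was marked at -0.32 (next -2.2) and Pla2g1b at 0.68 (next 2.84). Gapdh was marked at 3 of its 7 probes, at 6.82 (next 6.64), 8.30 (next 8.11) and 5.78 (next 5.61), gaps of far less than 2-fold.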

How the results depend on the processing

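The counts of genes and probes called depended on several choices. Against 450 genes higher, 610 lower, 1177 probes higher and 1064 lower, the counts in the same order were 236, 263, 558 and 432 with normexp background correction, 934, 933, 3163 and 2143 with no filter on dim probes, 194, 390, 595 and 688 against 981E1 and 981E4 alone, 1300, 1949, 3177 and 3490 at 1.5-fold, and 100, 115, 276 and 197 at 3-fold. Leaving out each of the 5 other clones gave 366 to 558, 525 to 745, 1001 to 1454 and 922 to 1293. The chromosome 8 median of 0.39 was positive throughout. It was 0.32 with normexp, 0.41 with quantile normalization, 0.42 with the percentile over detected probes, 0.31 with no filter, 0.36 against the Aid+/+ clones, 0.42 over lincRNA probes, 0.38 over single probes, 0.47 with the median gene elsewhere at 0 (chosen after seeing the data) and 0.39 to 0.40 with each clone left out. Myc was -1.17 against the Aid+/+ clones and -1.93 to -1.77 with each clone left out. Gapdh was -0.0013 with quantile normalization, -0.15 against the Aid+/+ clones and 0.20 to 0.21 with each clone left out. Against the mean of the Aid+/+ clones the direction turned for Nfix (0.78), Ces2e (0.69), Csgalnact1 (0.86) and Fam149a (0.64), where 967B4 was lowest of those clones. Among list medians it turned for the fibroblast list (0.68) and the adhesion list (-0.10). The endoderm list went from -0.24 to 0.61 and the trophoblast list from -0.20 to 0.38. The pluripotency and germline lists went from 0.02 and 0.14 to -0.10 and -0.01. The causes were not tested. The named genes still called numbered 35 of 45 against the Aid+/+ clones, 40 with normexp and 44 to 45 with each clone left out. List medians of 981E5 lay outside the range of the others for 17 of 27 lists, for 14 against the Aid+/+ clones, and for 18 to 23 with each clone left out. No paired analysis was possible because no test was made and 981E5 is 1 array. Signal over background limits what dim probes can show.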

Other observations

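The Rhox genes, a cluster of homeobox genes of the reproductive system on chromosome X, were chosen after their values were seen. Of 17 measured members 7 were called lower in 981E5 (all genes, 4.37%) and 0 higher (3.22%), with a median difference of -0.94. In 10 of them 981E5 was the lowest of the 6 clones (all genes, 35.4%). The cluster also varied between the other clones. Its median deviation from the 6-clone median was -0.73 in 981E5, -0.54 in 979F3 and 1.04 in 981E4. It was 0.30 in 981E1, -0.02 in 979F1 and -0.03 in 979F2, so 981E4 deviated most. On chromosome X as a whole 40 of 509 genes were called lower, and 981E5 was lowest in 38.7%. Rhox2h was at -3.44 in 981E5, against -1.17, -1.91, -2.72, -0.39 and 1.29 in 979F1, 979F2, 979F3, 981E1 and 981E4, so that 981E4 held the highest and 981E5 the lowest value. Rhox5, the most studied member, was at 6.55, with the others between 7.27 and 8.20. In 14 of the 17 the level of 981E5 lay within the range of the Aid+/+ clones. The members are near copies of each other whose probes can share signal, so the single values are uncertain.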
